A study of Mus musculus with 16 samples.

Results

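The 8 genes described here, *Nphs1*, *Kirrel*, *Magi2*, *Cd2ap*, *Podxl*, *Ptpro*, *Synpo* and *Actn4*, belong to the podocyte, the epithelial cell of the kidney glomerulus, and were chosen by symbol from a table of histone marks with 43984 genes and a table of CpG methylation with 55471 genes. Podocytes wrap the glomerular capillaries with interlocking foot processes, and the gap between neighbouring processes is bridged by the slit diaphragm, a cell junction that holds back protein during filtration. Adaptor proteins tie this junction to the actin of the foot process, and a coat of charged sialoprotein keeps neighbouring processes apart. *Nphs1*, *Synpo*, *Ptpro* and *Magi2* were set down as genes of restricted expression and *Podxl*, *Cd2ap*, *Actn4* and *Kirrel* as genes used in many cell types, from general knowledge and not from these values.

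The cells were not podocytes but mouse induced pluripotent stem cells (iPSCs), reprogrammed from proximal tubule cells (lines PTC11 and PTC12) or from tail tip fibroblasts (lines TTF1 and TTF4). All came from quadruple transgenic animals that carried the OKMS-250 reprogramming cassette, rtTAROSA (neo-in), a tdTomato reporter and SLC34a1-GCE, in which doxycycline switches on the reprogramming factors once Cre recombinase has removed the neo cassette. In the PTC lines Cre was driven by the *Slc34a1* promoter of the proximal tubule and induced with tamoxifen, and tdTomato+/GFP+ cells were sorted before reprogramming, whereas the fibroblasts were given Cre on a plasmid. Each line was a clone that no longer needed doxycycline, taken at early passage and kept on mouse embryonic fibroblast feeders, and each had 1 library of H3K4me3, 1 of H3K36me3 and 1 of nanopore CpG methylation, so that a line was the replicate (n = 2 per origin). By the methods the cells of both origins came from littermates and the methylation samples of an origin stand for separate animals, which is not stated for the histone libraries. A p value covers the spread between these lines only. Neither podocytes nor any other glomerular cells were among the samples, and in such bulk libraries fewer cells carrying a mark and less of the mark per cell cannot be told apart.

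H3K4me3 marks the start of active or poised genes, H3K36me3 marks gene bodies crossed by elongating RNA polymerase, and methylation of CpGs at the transcription start site (TSS) accompanies silent promoters. Histone levels are RPKM, reads per kilobase of peak and scaled to the reads of the library, less the RPKM of the input, averaged over the peaks from 2 kb before to 3 kb after the TSS for H3K4me3 and over the gene body for H3K36me3. A gene without a retained peak had no value. Methylation is the fraction of methylated CpGs within 1000 bp to each side of the TSS. Counts of reads and coverage of CpGs were not part of the tables, so the depth behind each value is unknown and precision comes from the lines. The lines differed in scale over all genes, with a median H3K36me3 of 1.60 and 1.18 RPKM in PTC11 and TTF1 against 3.88 and 4.01 in PTC12 and TTF4, and a median methylation of 0.374 to 0.539 in PTC11, PTC12 and TTF1 against 0.770 in TTF4. Of 10 pluripotency markers 7 to 9 had an H3K4me3 value in each line. *Pou5f1* lay between 4.24 and 5.56 RPKM and *Nanog* between 2.80 and 3.47. *Dppa5a* had 1.06, 0.661 and 1.23 RPKM in PTC11, PTC12 and TTF1 and no value in TTF4, and *Esrrb* had none in any line. Of 10 proximal tubule markers 1 to 3 had an H3K4me3 value. Fibroblast markers, which the feeders could also carry, had one for 2 of 10 genes in PTC11, 7 in PTC12 and TTF1 and 4 in TTF4. Their part in the values below was not tested.

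All 8 genes are protein coding, and their positions are given on mm10 (GRCm38). *Nphs1* (chr7:30458315-30487223, plus strand) encodes nephrin, the adhesion protein that spans the slit. *Kirrel* (chr3:87078593-87174747, minus strand) encodes Neph1, its binding partner. *Magi2* (chr5:19227036-20704792, plus strand) encodes a membrane scaffold that binds nephrin, and *Cd2ap* (chr17:42792951-42876665, minus strand) encodes the adaptor that links nephrin to actin. *Podxl* (chr6:31519488-31563981, minus strand) encodes podocalyxin, the sialoprotein of the apical coat, and *Ptpro* (chr6:137252319-137463233, plus strand) encodes a receptor tyrosine phosphatase of the apical membrane. *Synpo* encodes synaptopodin, an actin-binding protein of the foot process, and *Actn4* (chr7:28893248-28962340, minus strand) encodes the actin crosslinker alpha-actinin-4. The TSS of each lies in an annotated exon in the methylation table. *Nphs1* and *Kirrel2* are transcribed away from each other from start sites 625 bp apart, so that their windows share most of their sequence and reads there cannot be told apart.

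The promoters of the genes differ in their density of CpGs, the sites at which methylation was read. Of the 8 genes 6 matched an entry of the RefSeq promoter table (GRCm38.p6), and *Podxl* and *Synpo* did not. The 250 bases before the start site are shown for 3 of the 6 genes, *Actn4* (chr7:28962333-28962582, minus strand), *Magi2* (chr5:19226796-19227045, plus strand) and *Ptpro* (chr6:137252049-137252298, plus strand). They are written from 5′ to 3′ with every CpG in capitals.
Actn4: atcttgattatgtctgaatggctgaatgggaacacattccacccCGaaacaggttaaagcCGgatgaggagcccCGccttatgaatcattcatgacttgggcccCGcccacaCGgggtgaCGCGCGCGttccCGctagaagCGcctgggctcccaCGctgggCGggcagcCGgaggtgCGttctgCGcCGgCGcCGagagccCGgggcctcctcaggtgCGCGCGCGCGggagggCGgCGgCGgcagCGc
Magi2: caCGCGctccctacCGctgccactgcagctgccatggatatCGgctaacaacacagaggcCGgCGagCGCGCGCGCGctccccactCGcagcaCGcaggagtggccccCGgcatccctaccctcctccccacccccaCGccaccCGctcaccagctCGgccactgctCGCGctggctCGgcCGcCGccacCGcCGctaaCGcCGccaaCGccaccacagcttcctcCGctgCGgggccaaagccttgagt
Ptpro: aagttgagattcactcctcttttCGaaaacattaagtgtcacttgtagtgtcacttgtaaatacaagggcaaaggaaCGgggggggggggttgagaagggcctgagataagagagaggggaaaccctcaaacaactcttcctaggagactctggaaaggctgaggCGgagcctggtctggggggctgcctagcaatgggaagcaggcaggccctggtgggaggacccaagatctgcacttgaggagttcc
*Actn4* and *Magi2* each hold 29 CpGs in these bases and *Ptpro* holds 3, against a median of 7 in the 300 bases of all 32851 promoters. GGGCGG, searched on both strands, occurred 4 times in the 300 bases of *Actn4* and not at all in those of *Magi2* and *Ptpro*, and 35.7% of all promoters held it. Within 1000 bp of the TSS the order of the genes was *Synpo* (18 CpGs), *Nphs1* (31), *Ptpro* and *Kirrel* (81 each), *Actn4* (98), *Magi2* (110), *Cd2ap* (124) and *Podxl* (137), with a median of 25 over all TSS. For *Nphs1* the RefSeq start site lies 1743 bp downstream of the one used in the tables, outside the methylation window and inside the H3K4me3 window.

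H3K4me3 was found at the start of 7 of the 8 genes in PTC12, TTF1 and TTF4 and of 4 in PTC11. A value in PTC12, TTF1 and TTF4 was present for 57.1% of protein-coding genes. *Synpo* had no H3K4me3 value in any line. *Nphs1*, *Podxl* and *Ptpro* had none in PTC11, which is 3 of the 7 genes with a value in the other lines, where the share over all such genes was 8.01%.

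Among the slit diaphragm genes, H3K4me3 at *Nphs1* was 3.13, 4.35 and 3.05 RPKM in PTC12, TTF1 and TTF4, at percentile 37.6 or lower of each library. Its neighbour *Kirrel2* stood at 3.82, 3.84, 4.35 and 2.98 RPKM in PTC11, PTC12, TTF1 and TTF4, with a value equal to that of *Nphs1* in 1 line, TTF1. In PTC11 a value was thus listed for *Kirrel2* and none for *Nphs1*. At *Kirrel* H3K4me3 was 4.09 and 4.15 RPKM in the PTC lines, 6.96 in TTF1 and 4.63 in TTF4, and the lines of the 2 origins did not overlap. *Kirrel3*, another gene of this family, had 3.17, 3.25, 3.81 and 2.81 RPKM in PTC11, PTC12, TTF1 and TTF4, below *Kirrel* in every line. *Magi2*, in the same order, had 3.65, 5.21, 6.61 and 4.19 RPKM. *Cd2ap* had 4.03 RPKM in each PTC line, 6.13 in TTF1 and 3.31 in TTF4. For both genes the TTF lines lay on either side of at least 1 PTC line.

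Of the apical genes, *Podxl* had 4.52, 5.85 and 3.32 RPKM of H3K4me3 in PTC12, TTF1 and TTF4, and *Ptpro* had 3.77, 4.13 and 2.77 RPKM in the same lines, lower than *Podxl* in each. *Actn4* had 3.71, 5.26, 5.32 and 2.89 RPKM in PTC11, PTC12, TTF1 and TTF4. TTF1 was the highest line for all 7 genes with a value, as it was for 63.5% of all genes among PTC12, TTF1 and TTF4, and TTF4 was the lowest of these 3 lines for 6 of 7, the exception being *Kirrel*, where 86.6% of all genes had TTF4 lowest. The order of the genes within a library also moved between lines. *Kirrel* was at percentile 89.3 in TTF4 and 41.1 in PTC12, and *Actn4* at 15.7 in TTF4 and 63.9 in PTC12. These libraries had a value for 15368 genes in TTF4 and 19990 in PTC12. Among the 13709 genes with a value in all 4 lines, *Kirrel* was at percentile 88.2 in TTF4 and 19.0 in PTC12. *Actn4* was at 10.9 and 48.5 on that basis.

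**Figure D1:**
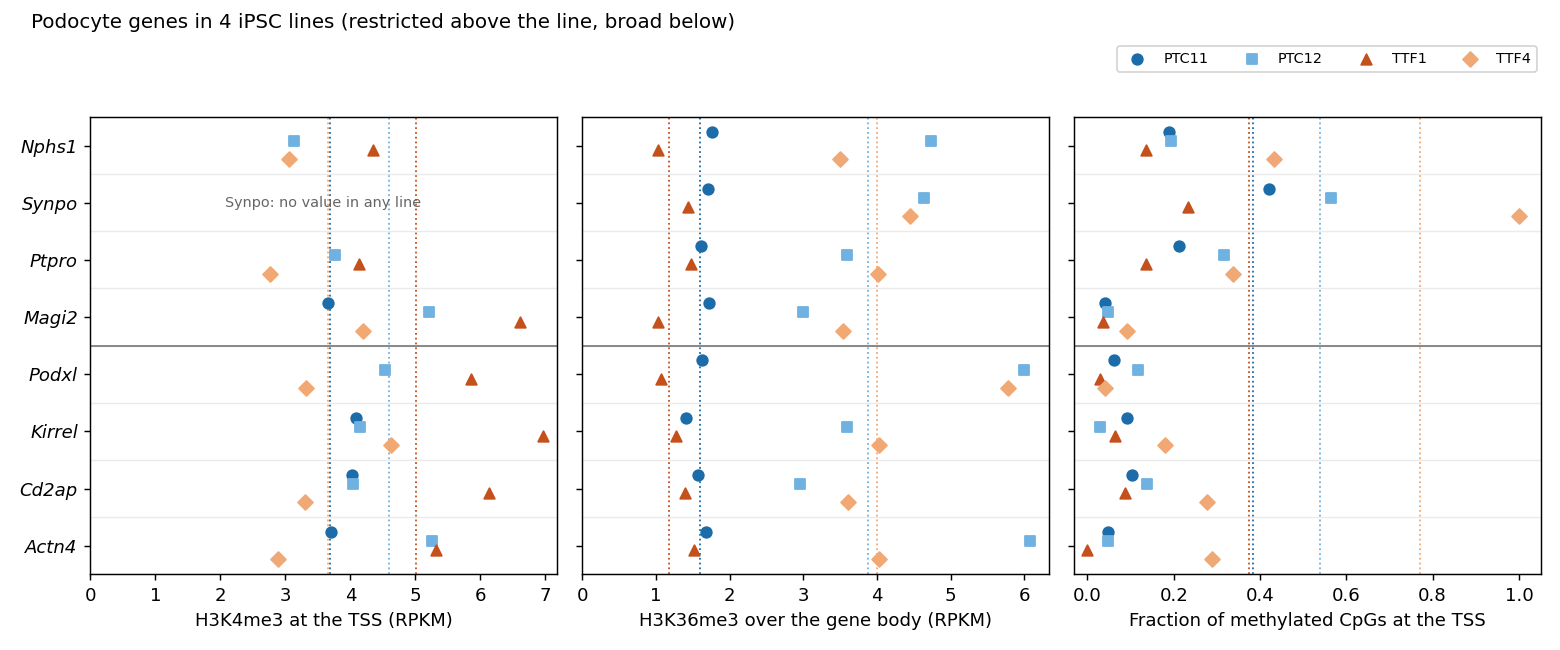
Levels of the 8 podocyte genes in lines PTC11, PTC12, TTF1 and TTF4 (1 point per line), with H3K4me3 and H3K36me3 in RPKM and methylation as a fraction, and dotted lines at the median of all genes of each library. H3K36me3 splits into PTC12 with TTF4 and PTC11 with TTF1 for every gene, methylation lies below the library median except at *Synpo* in PTC11, PTC12 and TTF4, and *Synpo* has no H3K4me3 value.

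H3K36me3 was present over all 8 gene bodies in all 4 lines, against 63.5% of protein-coding genes. It was likewise present in all 4 lines for 8 of 8 endothelial markers. The same held for 7 of 10 fibroblast, 6 of 10 proximal tubule and 6 of 10 pluripotency markers. *Synpo*, with no H3K4me3 at its start, had 1.70, 4.63, 1.44 and 4.44 RPKM of H3K36me3 in PTC11, PTC12, TTF1 and TTF4, between percentiles 60.2 and 75.1. Of protein-coding genes with H3K36me3 in every line 14.8% likewise had H3K4me3 in none. *Synpo2*, a paralogue, had H3K4me3 in PTC12 (3.75 RPKM), TTF1 (6.60) and TTF4 (3.82), and *Synpo2l*, another, had none in any line.

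*Nphs1* had 1.76, 4.74, 1.03 and 3.50 RPKM of H3K36me3 in PTC11, PTC12, TTF1 and TTF4, and was the gene of the 8 with the lowest level in TTF1 and in TTF4. *Podxl* had 1.62, 6.0, 1.07 and 5.78 RPKM in PTC11, PTC12, TTF1 and TTF4. *Actn4* had 1.68, 6.08, 1.52 and 4.02 RPKM in the same order. In PTC12 these last genes were the highest of the 8, at percentiles 85.7 and 86.3, and *Podxl* was again the highest in TTF4. The paralogue *Actn1* resembled *Actn4*, with 1.48, 5.69, 1.41 and 4.54 RPKM. *Magi2*, *Kirrel*, *Cd2ap* and *Ptpro* lay between 1.40 and 1.72 RPKM in PTC11 and 2.95 and 3.60 in PTC12, and between 1.03 and 1.47 RPKM in TTF1 and 3.54 and 4.03 in TTF4. PTC12 and TTF4 were above PTC11 and TTF1 for 8 of 8 genes and for 93.6% of all genes, and TTF1 was the lowest line for 8 of 8 genes and for 84.6% of all. The lines therefore divided across their origin, for these genes as for the rest.

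CpG methylation at the start sites was low for 5 genes and higher for *Nphs1*, *Ptpro* and *Synpo*. *Synpo* had fractions of 0.420 and 0.565 in the PTC lines, 0.232 in TTF1 and 1.00 in TTF4, where 3.73% of all genes were listed at 1. It was the highest of the 8 genes in every line, and TTF1 was the lowest line for it and for 6 of the other genes, as for 41.4% of all. *Nphs1* had 0.189 and 0.195 in the PTC lines, 0.136 in TTF1 and 0.432 in TTF4, so that the PTC lines lay within the range of the TTF lines. *Ptpro* had 0.212, 0.318, 0.136 and 0.337 in the same order, again with TTF1 lowest and TTF4 highest.

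*Magi2* had 0.0416, 0.0475, 0.0352 and 0.0918 in PTC11, PTC12, TTF1 and TTF4, at percentile 10.3 or lower of each library. *Podxl* had 0.0619, 0.118, 0.0290 and 0.0417 in these lines, and was the 1 gene of the 8 not highest in TTF4, which was the highest line for 75.4% of all genes. In TTF4 it stood at percentile 3.53. *Actn4* had 0.0487 and 0.0484 in the PTC lines, was listed at 0 in TTF1, like 2.3% of all genes, and had 0.288 in TTF4. *Cd2ap* (0.0868 to 0.278) and *Kirrel* (0.0303 to 0.180) were also highest in TTF4. *Cd2ap* kept the most even position, between percentiles 18.5 and 20.3 in the 4 lines.

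The paralogues allow each family to be set side by side. *Kirrel2* was listed at 0.0968, 0.0534, 0.00595 and 0.170 in PTC11, PTC12, TTF1 and TTF4, lower than *Nphs1* in each line although the windows overlap, and *Kirrel3* at 0.319, 0.282, 0.216 and 0.398, higher than *Kirrel* in each. *Actn1* did not exceed 0.0413 in any line and was below *Actn4* in PTC11, PTC12 and TTF4, and *Actn2* lay between 0.164 and 0.431. *Magi1* did not exceed 0.0137 and was below *Magi2* in every line. *Ptprj*, in the receptor phosphatase family of *Ptpro*, lay between 0.0650 and 0.141, below *Ptpro* in every line, and *Ptprb* between 0.585 and 0.796, above it in every line.

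**Figure D2:**
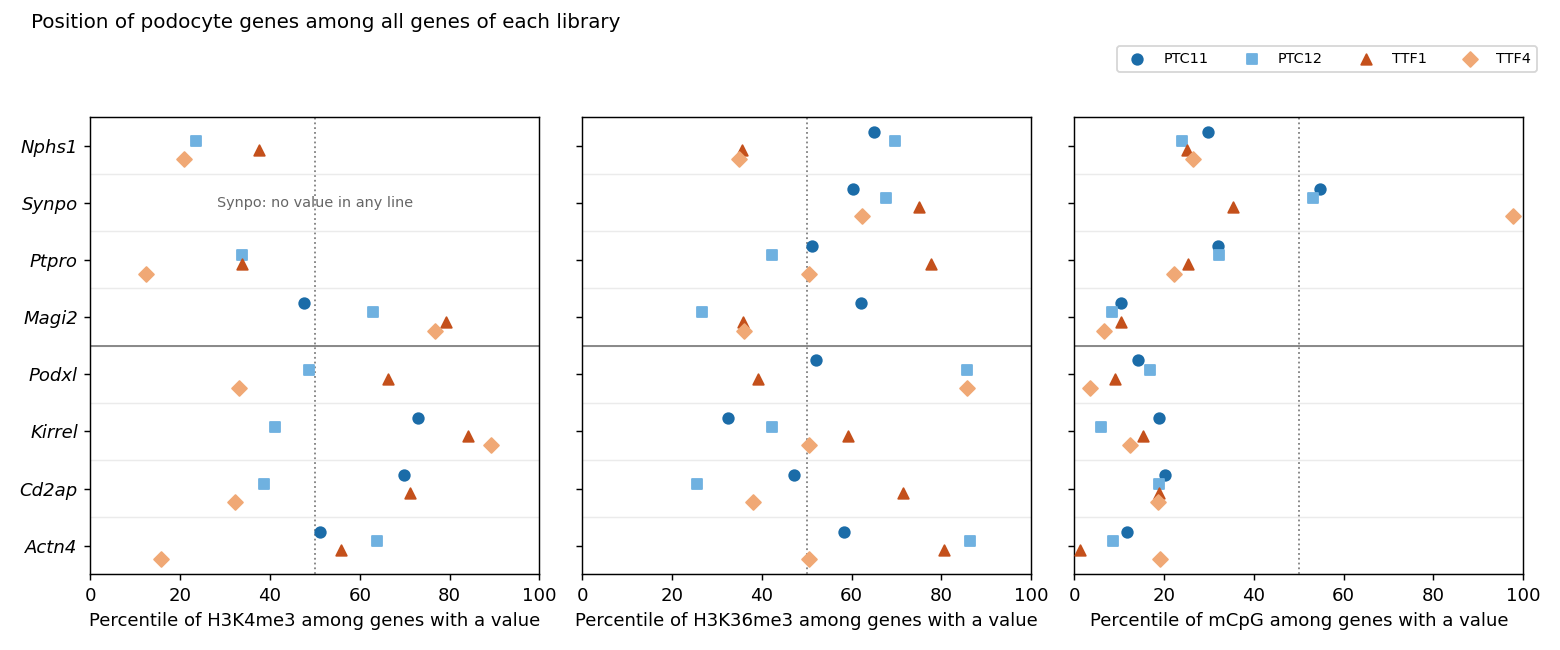
Percentile of each podocyte gene among all genes with a value in the same library, 1 point per line, with the dotted line at the library median. In methylation 7 of the 8 genes stay below the median in every line, while in the histone marks most genes fall on both sides of it.

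Over all genes, methylation was lower where the window held more CpGs. The median of TSS with 0 to 19 CpGs ran from 0.498 in TTF1 to 0.828 in TTF4, and that of TSS with 130 to 295 CpGs from 0.0294 in TTF1 to 0.0890 in TTF4. Compared with TSS of like CpG number, *Nphs1* (among 14067 TSS with 20 to 39 CpGs) was at percentiles 8.32, 3.74, 5.32 and 3.04 in PTC11, PTC12, TTF1 and TTF4, low in every line. *Ptpro* (among 3440 TSS with 80 to 99 CpGs) was at percentiles 88.6, 92.7, 69.8 and 72.4 in the same order, high in every line. *Kirrel*, with as many CpGs as *Ptpro*, ran from percentile 14.1 to 54.5 of the same TSS. *Synpo* (among 18407 TSS with 0 to 19 CpGs) was at percentiles 33.7, 32.0, 12.9 and 96.1, below the median in PTC11, PTC12 and TTF1 and near the top in TTF4. *Magi2* ran from percentile 25.2 to 37.3 of 3597 TSS with 100 to 129 CpGs, and *Cd2ap* from 63.7 to 74.0 of the same TSS. *Podxl* (among 2930 TSS with 130 to 295 CpGs) was at percentiles 73.2, 81.7, 49.3 and 32.4 in PTC11, PTC12, TTF1 and TTF4. *Actn4*, set among the same TSS as *Ptpro*, was at percentiles 30.8, 22.1, 1.98 and 61.8. Of the 3 promoters shown above, *Ptpro*, with the fewest CpGs in the 250 bases, had the highest methylation in every line. In TTF4 the fractions of *Actn4* (0.288) and *Ptpro* (0.337) were closer. The other promoters did not keep such an order. *Cd2ap*, with 31 CpGs in its 250 bases, was more methylated in every line than *Kirrel*, with 24.

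**Figure D3:**
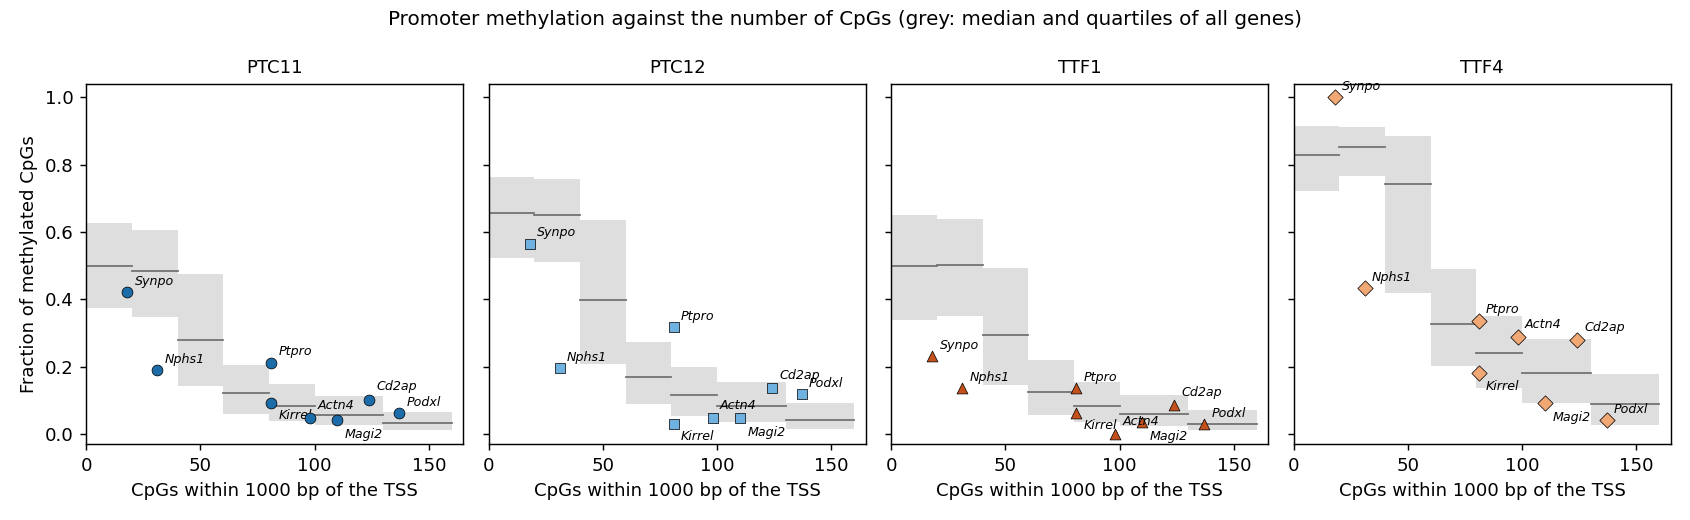
Fraction of methylated CpGs against the number of CpGs within 1000 bp of the TSS in each line, with the podocyte genes as labelled points and the median (line) and quartiles (band) of all genes in bins of CpG number, the last bin drawn short of its end. *Nphs1* lies under the band in every line, *Ptpro* lies above its median in every line, and *Synpo* lies over the band in TTF4 and under it in TTF1.

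When the genes were grouped as restricted or broadly expressed, the median methylation of the restricted genes exceeded that of the broad genes by 0.124, 0.173, 0.0893 and 0.156 in PTC11, PTC12, TTF1 and TTF4 (4 genes each). The groups overlapped in every line, because *Magi2* was among the least methylated genes. They also differed in CpGs within 1000 bp, with 18 at *Synpo*, 31 at *Nphs1*, 81 at *Ptpro* and 110 at *Magi2*. The broad genes held 81 to 137. Among TSS of like CpG number *Nphs1* was low in every line, as given above. The part of CpG number in the difference between the groups was not tested. *Nphs1*, *Synpo* and *Ptpro* each lay above the other 5 genes in every line, a grouping picked after the values were seen, which is given as a description. H3K4me3 went the other way, with a restricted minus broad median of -0.376, -0.573, -1.64 and -0.268 RPKM in PTC11 (1 restricted gene), PTC12, TTF1 and TTF4. H3K36me3 showed no steady order, where the same difference was 0.116, -0.688, -0.0962 and -0.244 RPKM in PTC11, PTC12, TTF1 and TTF4. When *Podxl* was counted as restricted and *Magi2* as broad, the restricted genes had the higher H3K36me3 median in PTC11 (0.0350 RPKM), PTC12 (1.39) and TTF4 (0.418), so that this order rests on the placing of those genes.

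The design asks whether the marks at these genes differ with the cell of origin. No gene of the 8 passed the test between TTF and PTC iPSCs in any of the 3 assays. Across all genes limma (Benjamini-Hochberg adjusted p under 0.05) called 0.481% of 13709 genes in H3K4me3, 0.112% of 17039 in H3K36me3 and 0.00395% of 50657 in methylation. Of the podocyte genes 0 of 4 with H3K4me3 in all lines, 0 of 8 with H3K36me3 and 0 of 8 with methylation were called. An unadjusted limma p under 0.05 was found for 0 of them. Over all genes it was found for 134 in H3K4me3, 116 in H3K36me3 and 2392 in methylation.

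For H3K4me3, *Kirrel* was the only gene whose lines did not overlap, with 4.12 ± 0.0472 RPKM in PTC and 5.80 ± 1.65 in TTF iPSCs (SD, n = 2). The difference was 0.39 ± 0.47 (SE) on the log2(RPKM + 1) scale, with a limma adjusted p of 1.00 and an exact two-sided permutation p over the lines of 0.33, the smallest that 2 lines against 2 allow. This order, TTF above PTC, was found for 5.04% of all genes (691 of 13709), and the opposite order for 435. *Magi2* differed by 0.23, *Cd2ap* by 0.14 and *Actn4* by -0.13, within 95% intervals from -0.91 to 1.13. The median over the 4 genes was 0.18, beside 0.04 over all genes tested.

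For H3K36me3 the differences ran from -0.40 at *Nphs1* to 0.06 at *Cd2ap*, with a median of -0.11 over the 8 genes and -0.14 over all genes. The 95% intervals reached from -2.51 to 2.05, with SEs of 0.91 to 1.15 at the 8 genes. These SEs were 0.18 to 0.28 with each line divided by its median and 0.19 to 0.28 with quantile normalization. They were 0.26 to 0.31 with a replicate block (PTC12 paired with TTF4, PTC11 paired with TTF1), whose pairs were taken from H3K36me3 in these same lines. In each of these fits 0 of the 8 genes were called. For methylation, taken as the fraction minus the mean of the line, the differences ran from -0.142 at *Podxl* (95% interval -0.397 to 0.114) to 0.0364 at *Synpo* (-0.292 to 0.365), with a median of -0.0257 beside -0.0100 over all genes. *Ptpro* was the only gene with both TTF lines below both PTC lines on this scale (-0.116, interval -0.385 to 0.154), an order found for 12.8% of all genes. As deposited, its TTF4 fraction of 0.337 was the highest of the 4. At *Synpo*, whose fraction spread most, the mean was 0.493 ± 0.102 in PTC and 0.616 ± 0.543 in TTF iPSCs (SD, n = 2), and the difference was smaller than the spread between the TTF lines.

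**Figure D4:**
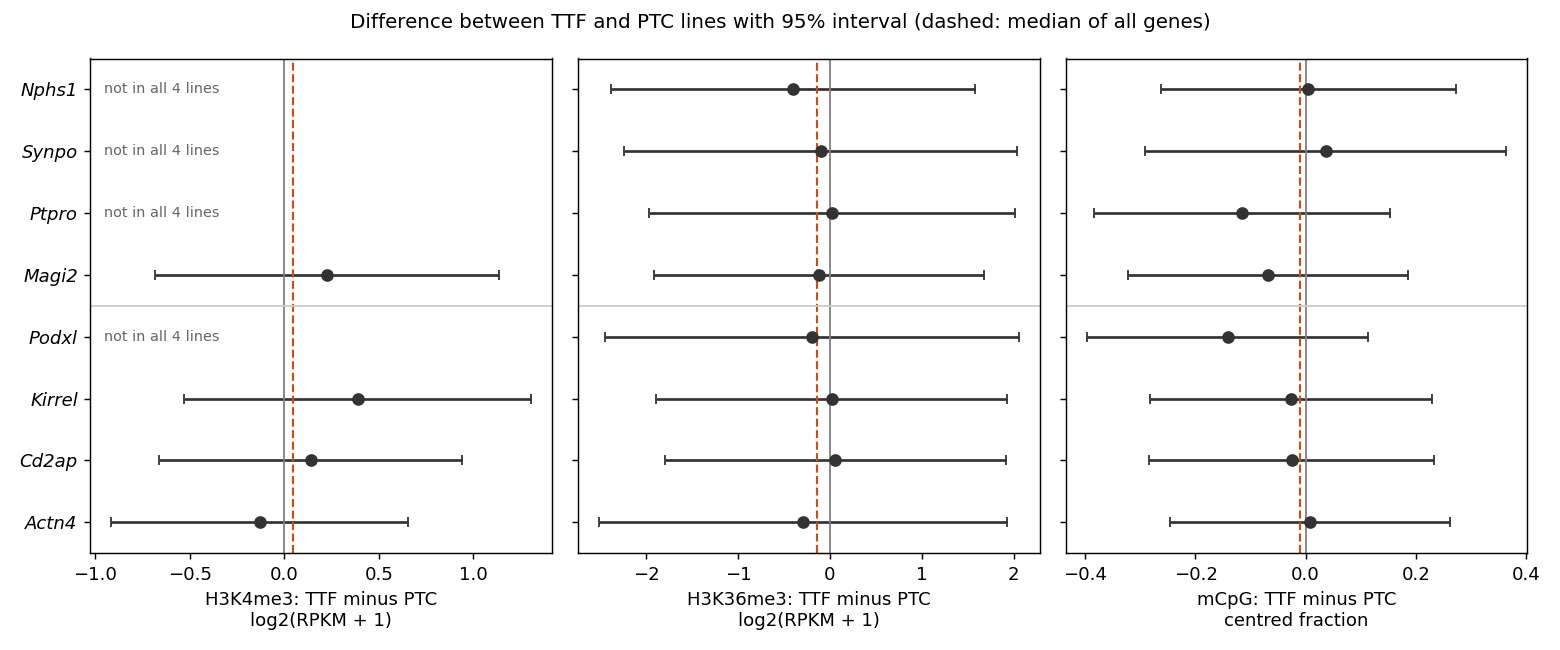
TTF minus PTC difference at each podocyte gene with its 95% limma interval, on the log2(RPKM + 1) scale for the histone marks and as centred fraction for methylation, with the median over all genes dashed. Every interval crosses 0, and *Nphs1*, *Synpo*, *Ptpro* and *Podxl* could not be compared for H3K4me3.

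A wider list of 42 podocyte genes, comprising slit diaphragm and signalling proteins, cytoskeletal proteins, adhesion and basement membrane proteins, transcription factors and other markers, gave the same count. Of them 33 had H3K4me3 in all lines, 39 H3K36me3 and 42 methylation, and limma called 0 in each direction in every assay. An unadjusted limma p under 0.05 was found for 0, 0 and 1 of them. Over all genes it was found for 134 of 13709, 116 of 17039 and 2392 of 50657 in the same order. With the replicate block limma called 1 gene of the list in H3K36me3, *Foxc2* (-0.84, adjusted p = 0.022), beside 167 of all 17039 genes. The pairs of this block were taken from H3K36me3 in the same lines. Without TTF1, which leaves TTF4 as the only TTF line, the methylation difference was 0.483 at *Iqgap1* and -0.597 at *Col4a5*. It was 0.414 at *Cdkn1c*, a cell cycle inhibitor. *Iqgap1*, *Col4a5* and *Cdkn1c* are named because that fit called them, and are given by value only. The median difference over the list was 0.07 in H3K4me3, -0.13 in H3K36me3 and -0.0665 in methylation, beside 0.04, -0.14 and -0.0100 over all genes. Of the 15 paralogues 0 were called in any assay.

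The ends of this list are given by value only. In H3K4me3 *Wt1*, the transcription factor that maintains podocyte identity, had the lowest difference (-0.19), with 3.03, 4.94, 3.61 and 3.01 RPKM in PTC11, PTC12, TTF1 and TTF4, and *Tcf21*, another podocyte transcription factor, the highest (0.26). In H3K36me3 *Foxc2*, a forkhead factor of the glomerulus, had the lowest (-0.84) and *Col4a5*, a collagen of the glomerular basement membrane, the highest (0.42). In methylation *Col4a5*, which lies on the X chromosome, had the lowest difference (-0.295), with fractions of 0.572 and 0.178 in the PTC lines, 0.333 in TTF1 and 0 in TTF4. *Iqgap1*, a scaffold protein that binds nephrin, had the highest (0.297), with 0.0838, 0.122 and 0.166 in PTC11, PTC12 and TTF1 and 0.809 in TTF4, so that 1 TTF line stood apart (limma unadjusted p = 0.041, adjusted p = 1.00).

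H3K27me3, a mark of repressed genes, had no value at any of the 8 genes in its 4 libraries, which listed 69 and 144 genes in the libraries labelled PTC11, 52 in TTF1 and 11 in TTF4. Of the wider list and the paralogues, *Tcf21* alone had one, in TTF4 (1.73 RPKM). With so few genes listed, its absence at a gene says little about the mark there.

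The histone table held 10 rows for the 8 symbols, since 2 more rows carried the symbol *Magi2*. One of them (chr5:20539890-20540404) had no value in any library. The identifier of the other belongs in GENCODE to Gm29254, a non-coding transcript at the 3′ end of *Magi2* (chr5:20702277-20706049, plus strand), with H3K4me3 of 3.79, 7.34, 8.19 and 3.91 RPKM in PTC11, PTC12, TTF1 and TTF4 and H3K36me3 of 2.86, 7.54, 1.53 and 8.32. It was kept apart from *Magi2*, whose own H3K36me3 was lower in every line. Over the 12 values of the 3 assays, the gene nearest to *Magi2* among 8947 was *Arl3* (a root mean square difference of 0.195 SD, beside a median of 0.698 to all genes). For *Cd2ap* it was *Mpp7* (0.198), for *Kirrel* *Lin54* (0.222) and for *Actn4* *Rad21* (0.250). The other 4 genes lacked at least 1 value.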

How the data were processed

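Histone values are RPKM deposited by the authors, who aligned reads to mm10 with Bowtie2 2.1.0, called peaks with MACS2 2.0.10, counted reads with bedtools 2.17.0 and subtracted input (versions from the submitters' processing notes and methods). Methylation values are fractions deposited by the authors from nanopore reads aligned with minimap2 2.17-r941, averaged over windows of 300 bp in steps of 30 bp and not centred. Depth and coverage per sample were unknown. Lines were grouped by origin from the labels. limma 3.58.1 (R 4.3.3; lmFit, eBayes with trend) was fitted to log2(RPKM + 1), which understates changes at low RPKM, or to fractions minus the mean of the line, over genes with a value in all 4 lines, with Benjamini-Hochberg adjustment over all of them. Values of 0 were kept. The fit was run on simulated data with 200 changed genes, whose changes were larger than every difference at the 8 genes. It therefore does not show whether differences of their size could be found with 2 lines per origin. H3K27me3 was not tested, as both PTC libraries carry the label PTC11. The members and lists were chosen with earlier results of these data known. Named genes were the 8 members, the list genes called or with the highest and lowest difference, paralogues, markers and the nearest gene to each member. Alternatives changed the pseudocount, low-value filter, scaling, missing values, variance trend, centring, sex chromosomes, replicate block and each line left out. CpGs were counted in GRCm38 with GENCODE M21. Python 3.11.15, numpy 2.4.6, pandas 2.3.3 and matplotlib 3.10.9 served the other steps. Columns of per-sample values that were not used numbered 0.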

Additional observations from a re-analysis of the deposited data

How the results depend on the processing

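The count of podocyte genes called between TTF and PTC iPSCs was 0 in every assay under every alternative that kept all lines. The low-value filter, missing values, variance trend, sex chromosomes and replicate block leave each tested member difference as it was. Its sign could therefore change only with the pseudocount, scaling or centring. Of 128 member differences under all these alternatives together 121 kept their sign. The exceptions were *Synpo* H3K36me3 (0.072 with quantile normalization and 0.051 with each line divided by its median), *Nphs1* methylation (-0.0181 with quantile normalization), *Kirrel* methylation (0.0609 as deposited and 0.00844 with quantile normalization), and *Cd2ap* (0.0620) and *Magi2* (0.0190) methylation as deposited. Centring subtracts the mean of each line, so the deposited scale shifts every methylation difference by the same amount, with the median of all genes at 0.0771. Quantile normalization moves the median of H3K36me3 from -0.14 to 0.01. The cause of the sign changes with quantile normalization or median scaling was not tested.

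With 1 line left out, an origin is left with a single line, assumed to vary like the other origin, whose pair then gives all the spread, and 30 of 80 member differences changed sign. In H3K4me3 they ran from -0.052 to 0.50 at *Magi2*, -0.22 to 0.50 at *Cd2ap* and -0.48 to 0.22 at *Actn4*. In H3K36me3 they ran from -0.97 to 0.18 at *Nphs1*, -0.68 to 0.48 at *Synpo*, -0.49 to 0.53 at *Ptpro*, -0.70 to 0.46 at *Magi2*, -1.05 to 0.66 at *Podxl*, -0.55 to 0.60 at *Kirrel*, -0.41 to 0.53 at *Cd2ap* and -0.99 to 0.41 at *Actn4*. In methylation they ran from -0.0471 to 0.0570 at *Nphs1*, -0.212 to 0.285 at *Synpo*, -0.175 to 0.0388 at *Magi2*, -0.112 to 0.0597 at *Kirrel*, -0.0648 to 0.0145 at *Cd2ap* and -0.0467 to 0.0635 at *Actn4*.

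Over all genes the counts called were unstable. H3K4me3 went from 66 to 102 with a pseudocount of 0.1 and to 0 with a minimum mean of 1 RPKM, quantile normalization, median scaling, missing values set to 0 or no variance trend, and H3K36me3 went from 19 to 44 and to 0 under the same alternatives. Methylation went from 2 to 0 as deposited or with quantile normalization, 9 without chromosomes X and Y and 1 without the trend. Leaving out a line gave 59 to 108 genes in H3K4me3 (108 without TTF1), 1 to 31 in H3K36me3 (31 without PTC11, 8 without TTF1, 1 without TTF4) and 0 to 1020 in methylation (5 without PTC11, 0 without PTC12, 1020 without TTF1, 227 without TTF4). In the list of 42 podocyte genes it gave 0 to 3 in methylation, which without TTF1 were *Iqgap1* (0.483), *Cdkn1c* (0.414) and *Col4a5* (-0.597). The 1020 genes without TTF1 were of 50657 tested. With TTF4 as the only TTF line in that fit, its calls are given as a description.

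With a replicate block pairing PTC11 with TTF1 and PTC12 with TTF4, limma called 34 genes in H3K4me3, 167 in H3K36me3 and 24 in methylation, 0 of them podocyte members (lowest adjusted p 0.82), and 1 list gene, *Foxc2* in H3K36me3 (-0.84, adjusted p 0.022). The labels do not pair the lines. The pairing follows the paper's figure, where PTC11 resembled TTF1 and PTC12 resembled TTF4 in H3K36me3. In that mark the block was therefore drawn from the same values it was fitted to, and the calls there are given as a description. Deviations of PTC11 and TTF1 from their origin means correlated at -0.42 in H3K4me3, 0.47 in H3K36me3 and 0.11 in methylation across genes, and crossing the pairs in H3K4me3, chosen after seeing the data, gave 2 genes.

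The mean over lines of the restricted minus the broad median in H3K36me3 was -0.228 RPKM, 0.441 with *Podxl* and *Magi2* exchanged and 0.321 for *Nphs1*, *Synpo* and *Ptpro* against the other 5. In H3K4me3 it was -0.715, -1.21 and -1.13 in the same order, the last 2 over PTC12, TTF1 and TTF4, since PTC11 had no restricted gene left. In methylation it was 0.135, 0.145 and 0.193. With missing values set to 0, the H3K4me3 differences of *Nphs1*, *Podxl* and *Ptpro* were 1.19, 1.21 and 1.01, which follows from their missing value in PTC11.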
